A study of Mus musculus with 7 samples.

Results

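The genes described here mark the stroma and the high endothelial venules (HEVs) of lymph nodes. They were chosen by name, as the 10 mouse symbols Madcam1, Chst4, Glycam1, Fut7, Coch, Ccl19, Ccl21a, Cxcl13, Ltb and Ltbr of GENCODE M21, and they correspond to 12 of the 46603 Ensembl genes in the count files. The 2 extra genes are copies of Ccl19 and Ccl21a on unplaced scaffolds, both at 0 counts in every library. The choice rested on measured values, since the list was drawn up around the library of KO + NM1 tumor piece 01 set against the other 6 libraries, so levels in that contrast are described without a test.

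KO cells are mouse embryonic fibroblasts (MEFs, line CRL-2752) that lack nuclear myosin 1 (NM1) after CRISPR/Cas9 editing. KO + NM1 cells are the same KO MEFs to which tagged NM1 was returned by a lentivirus, with single clones tested. Both were injected into female Balb/c nude mice, a strain without a thymus and therefore poor in T cells, at 16 weeks of age. The tumors were taken at the end of a 30-day cycle, and the labels describe 1 KO and 1 KO + NM1 tumor, each cut into 4 pieces, of which 3 KO and 4 KO + NM1 pieces gave RNA-seq libraries. If each condition gave 1 tumor, the spread between pieces holds no difference between mice, and every p-value below measures the spread between pieces only. Injected and host cells are both of mouse, so their transcripts were counted together, and in bulk RNA fewer cells of a type cannot be told apart from less RNA per cell.

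In lymph nodes, naive lymphocytes leave the blood through HEVs, whose endothelial cells carry sulfated and fucosylated sugars to which lymphocytes attach. Stromal cells beneath the endothelium release the chemokines CCL19, CCL21 and CXCL13, which draw T cells, dendritic cells and B cells to their zones. Lymphocytes in turn keep this stroma in its mature state by presenting lymphotoxin to the lymphotoxin beta receptor, which acts through the non-canonical branch of NF-kB.

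Between 24088309 and 28326568 reads were counted per piece. Myo1c, the gene that encodes NM1 as one of its isoforms, lay at 289 to 313 CPM (counts scaled by the TMM-adjusted library size) in the KO pieces and at 382 to 438 CPM in the KO + NM1 pieces, and gene counts do not separate the isoform. KO + NM1 piece 01 stood apart from the other libraries in its B cell markers, which summed to 6476 CPM over 10 genes against 4.65 to 72.2 CPM in the other 6 pieces. Mitochondrially encoded genes took 1.81% to 2.14% of the counts in the KO pieces, 5.11% in KO + NM1 piece 01 and 7.77% to 18.5% in KO + NM1 pieces 02 to 04.

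Of the 10 genes, 9 had their highest level in KO + NM1 piece 01, and 8 were at least 8-fold above the highest of the other 6 pieces on the scale of log2(CPM + 0.5). Over the 16893 genes that reached 1 CPM in at least 1 piece, piece 01 was the highest for 24.8% and passed the 8-fold mark for 1.75%. These counts are what the list was chosen for and are read as a description. The median of this difference, called the log2 gap, was 4.65 for the 10 genes and -0.74 for all 16893. The gene just inside the 8-fold mark was Ccl21a with a gap of 3.58, and the gene just outside was Cxcl13 with 1.37. Ltbr, with -1.27, was the single gene of the list that was lowest in piece 01.

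**Figure D1:**
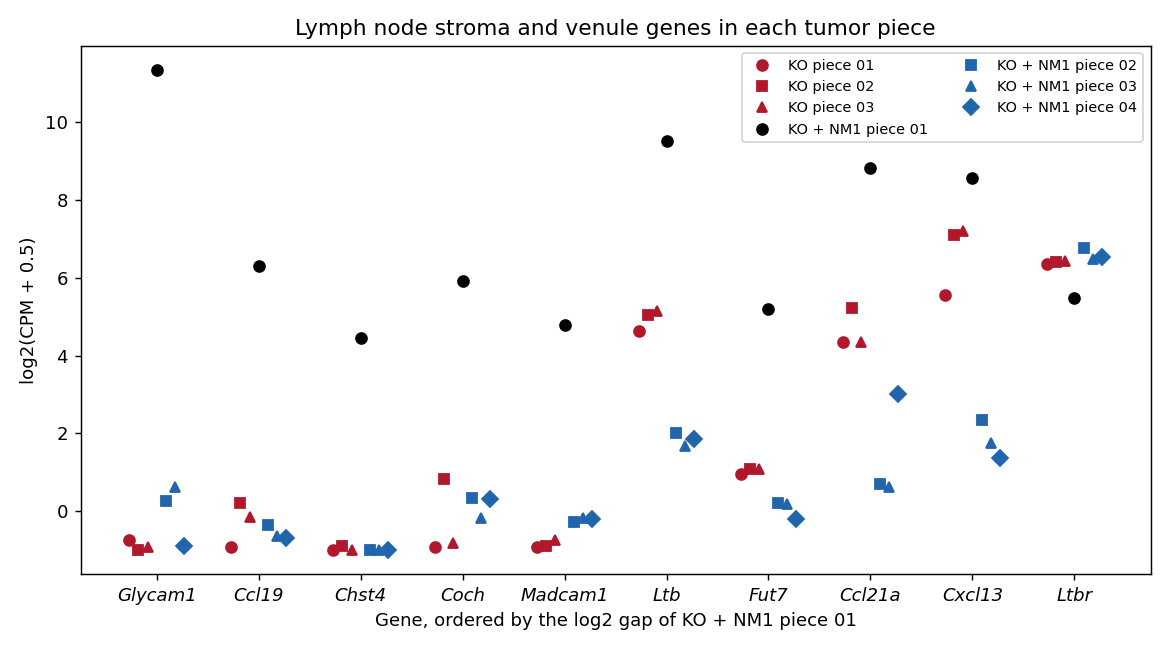
Levels of the 10 genes as log2(CPM + 0.5) on the y axis, with genes on the x axis in the order of their log2 gap. Each point is 1 tumor piece, with KO in red, KO + NM1 pieces 02 to 04 in blue and KO + NM1 piece 01 in black. The black point is the highest for 9 genes and the lowest for Ltbr.

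Madcam1 and Ltb carry letter patterns of the NF-kB type close upstream of their starts, and their upstream sequences are shown here beside those of Cxcl13 and Glycam1 because these genes differ in that pattern although all are highest in the same piece. Each is the 250 bases before the RefSeq gene start (GRCm38.p6), read 5′ to 3′ along the gene's strand, and capitals mark bases covered, on either strand, by an NF-kB-like pattern of 3 G, any 5 bases and 2 C. Madcam1 is at chr10:79664309-79664558 on the plus strand, Ltb at chr17:35194257-35194506 on the plus strand, Cxcl13 at chr5:95956689-95956938 on the plus strand and Glycam1 at chr15:103565082-103565331 on the minus strand.
Madcam1: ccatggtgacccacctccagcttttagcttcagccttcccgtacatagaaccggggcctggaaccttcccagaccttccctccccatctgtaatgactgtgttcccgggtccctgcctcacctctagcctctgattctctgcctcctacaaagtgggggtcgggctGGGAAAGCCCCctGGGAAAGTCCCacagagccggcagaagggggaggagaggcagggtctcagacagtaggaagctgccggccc
Ltb: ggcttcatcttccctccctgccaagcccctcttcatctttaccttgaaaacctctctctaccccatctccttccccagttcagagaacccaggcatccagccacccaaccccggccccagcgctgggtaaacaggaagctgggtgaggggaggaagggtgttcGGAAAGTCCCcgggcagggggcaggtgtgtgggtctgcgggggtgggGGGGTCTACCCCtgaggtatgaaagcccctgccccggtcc
Cxcl13: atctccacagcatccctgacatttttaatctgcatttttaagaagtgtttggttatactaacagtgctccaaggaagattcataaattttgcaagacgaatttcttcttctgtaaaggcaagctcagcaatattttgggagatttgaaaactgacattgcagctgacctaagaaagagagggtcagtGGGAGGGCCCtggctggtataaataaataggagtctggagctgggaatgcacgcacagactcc
Glycam1: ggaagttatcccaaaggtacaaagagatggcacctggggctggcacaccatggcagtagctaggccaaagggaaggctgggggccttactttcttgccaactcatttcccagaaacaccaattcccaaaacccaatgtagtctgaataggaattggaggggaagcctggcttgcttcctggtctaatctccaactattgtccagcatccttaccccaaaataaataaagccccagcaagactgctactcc

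This pattern was in the upstream sequence of 6 of the 10 genes (Madcam1, Coch, Ccl19, Cxcl13, Ltb and Ltbr), and in 45.8% of 32851 RefSeq promoters of the same length. Matches on the 2 strands overlap, and capitals show the merged stretch. A narrower pattern of 3 G, any 3 bases, 2 T and 2 C, every match of which is also a match of the first, was in 2 of the 10, against 4.65% of all promoters. In Madcam1 it occurred on the minus strand with its leftmost base 83 and 70 bases before the start, recorded as -83 and -70, and in Ltb on the minus strand at -87. Glycam1, Chst4, Fut7 and Ccl21a held neither pattern in this window. A match is a description of letters, and no binding was measured.

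The HEV genes covered the addressins and the enzymes that decorate them. Glycam1 (ENSMUSG00000022491, chromosome 15, 103562759 to 103565081, minus strand) encodes a secreted mucin of HEVs that carries these sugars, and it is also known as a milk protein gene. It had 70837 counts in KO + NM1 piece 01, against 17, 21 and 1 in KO + NM1 pieces 02, 03 and 04 and 3, 0 and 1 in KO pieces 01, 02 and 03. Its level of 2584 CPM was 2490-fold above the highest other piece, and its gap of 10.71 was the largest of the 16893 genes. Of 8 other milk genes that were measured, 5 were lower in piece 01 than in each of KO + NM1 pieces 02 to 04. The caseins Csn1s1, Csn1s2a and Csn2 lay in piece 01 at 12.7, 4.96 and 4.67 CPM, below pieces 02 and 03 but above piece 04, at 5.47, 0.82 and 0.49 CPM. The 10-gene milk list, led by Csn3 and Xdh, summed to 361 CPM in piece 01 and to 1095 to 1308 CPM in KO + NM1 pieces 02 to 04, and Wap and Csn1s2b were at or under 3 counts in every piece.

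Chst4 (ENSMUSG00000035930, chromosome 8, 110029153 to 110039740, minus strand), the sulfotransferase that sulfates these sugars in HEVs, had 581 counts in piece 01. Among the other 6 pieces it had 1 count, in KO piece 02, so it was under the floor of 3 counts in each of them. The ratio of CPM to KO piece 02 was 610 with an exact 95% interval of 109 to 24123, which covers counting error only. Fut7 (ENSMUSG00000036587, chromosome 2, 25423267 to 25426374, plus strand), the fucosyltransferase of the same sugars, which leukocytes also express, reached 36.4 CPM in piece 01. It lay at 1.43, 1.63 and 1.62 CPM in the KO pieces and at 0.651, 0.642 and 0.370 CPM in KO + NM1 pieces 02 to 04. Madcam1 (ENSMUSG00000020310, chromosome 10, 79664559 to 79668537, plus strand) encodes the addressin bound by the integrin alpha4 beta7. It had 743 counts in piece 01, 8, 8 and 9 in KO + NM1 pieces 02 to 04 and 1, 1 and 3 in the KO pieces. Of 8 markers of blood endothelium at large, 1 was highest in piece 01, where 24.8% of all genes were. This marker was Pecam1, at 479 CPM against at most 331 CPM elsewhere. The list, led by Pecam1 and Cdh5, summed to 1118 CPM in piece 01 and to 1346 to 1584 CPM in KO + NM1 pieces 02 to 04.

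The stromal genes were the chemokines and Coch, which encodes cochlin, a secreted protein of follicular dendritic cells and of the inner ear. Coch (ENSMUSG00000020953, chromosome 12, 51593341 to 51605771, plus strand) had 1635 counts in piece 01 and 19, 8 and 18 in KO + NM1 pieces 02 to 04. In the KO pieces it had 1, 37 and 2 counts, so the KO pieces spanned the KO + NM1 values. Ccl19 (ENSMUSG00000071005, chromosome 4, 42754525 to 42756577, minus strand), a ligand of CCR7, had 2154 counts in piece 01, against 7, 3 and 3 in KO + NM1 pieces 02 to 04 and 1, 19 and 12 in the KO pieces.

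Ccl21a (ENSMUSG00000094686, chromosome 4, 42772860 to 42773993, minus strand), the other CCR7 ligand, was also measured at some level in all other pieces. It reached 448 CPM in piece 01, 19.7, 36.8 and 20.0 CPM in the KO pieces and 1.14, 1.04 and 7.52 CPM in KO + NM1 pieces 02 to 04. Every KO piece lay above every one of KO + NM1 pieces 02 to 04. Cxcl13 (ENSMUSG00000023078, chromosome 5, 95956951 to 95961068, plus strand) encodes the B cell attractant that binds CXCR5 and is made by follicular stroma and, in mice, by macrophages. It reached 379 CPM in piece 01, 46.4, 137 and 146 CPM in the KO pieces and 4.56, 2.87 and 2.10 CPM in KO + NM1 pieces 02 to 04. The highest KO piece was within 2.59-fold of piece 01, the smallest fold of the 9 genes.

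The counts of Ccl21a and Ccl19 are uncertain to the extent that copies of these genes share their reads. Transcripts of 4 other genes held 36.9% to 80.6% of the 31-base words of Ccl21a and drew 37 counts over all 7 pieces together. Another 4 genes held 22.6% to 58.8% of the words of Ccl19 and drew 425 counts, of which Gm2564 had 314 in 1 piece. How reads that match several copies were counted is not given in the sources used here. Both chemokine genes also lie inside 4930578G10Rik on the opposite strand, which had at most 2 counts in any piece. Ltb contains Mir6973a on its own strand, with 108 counts in KO + NM1 piece 01.

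The lymphotoxin genes went opposite ways. Ltb (ENSMUSG00000024399, chromosome 17, 35194439 to 35196320, plus strand), the membrane anchor of lymphotoxin that lymphocytes make, reached 730.5 CPM in piece 01. It lay at 24.1, 32.5 and 35.0 CPM in the KO pieces and at 3.50, 2.72 and 3.12 CPM in KO + NM1 pieces 02 to 04, again with no overlap between the groups. Ltbr (ENSMUSG00000030339, chromosome 6, 125306571 to 125313885, minus strand) encodes the receptor, which stromal and myeloid cells carry and lymphocytes largely lack. It lay at 44.5 CPM in piece 01, 81.8, 84.1 and 84.9 CPM in the KO pieces and 108, 89.3 and 92.7 CPM in KO + NM1 pieces 02 to 04.

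Compared per kilobase of exon, the order of levels within piece 01 was Glycam1 at 1211 CPM per kb, then Ccl21a at 514, Ltb at 482 and Cxcl13 at 329.6, all in the same unit. Ccl19 followed at 90.6 CPM per kb, and Coch, Ltbr, Madcam1, Fut7 and Chst4 lay between 9.29 and 19.9 CPM per kb. Piece 01 is a single library, so this order has no replicate error. In the other 6 pieces the highest level per kilobase among the 10 genes was that of Cxcl13, at 127 CPM per kb in KO piece 03, where that of Glycam1 did not pass 0.486 CPM per kb in any of them.

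**Figure D2:**
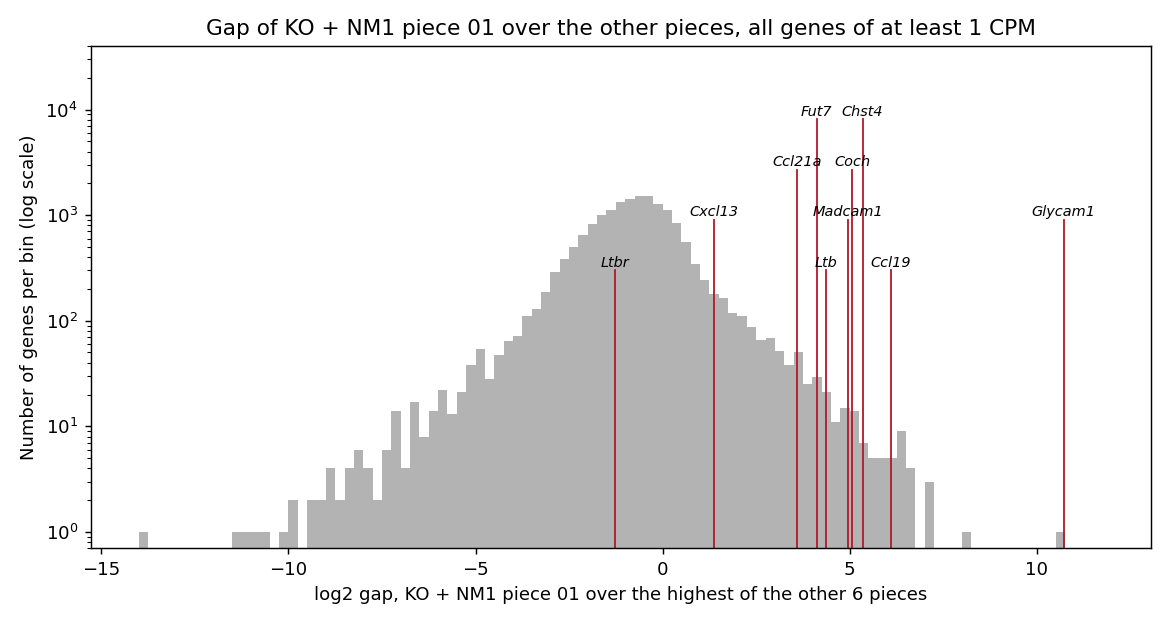
Histogram of the log2 gap of KO + NM1 piece 01 over the highest of the other 6 pieces for 16893 genes (x axis, log2 of CPM + 0.5; y axis, genes per bin on a log scale), with red lines at the 10 genes. Glycam1 lies at the far right with 10.71, 8 of the genes lie at 3.58 or above, and Ltbr lies left of 0.

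The genes whose pattern over the 7 libraries was most like that of this list were taken as the 10 with the largest gap among the 11896 genes with a symbol and at least 5 CPM in piece 01. Glycam1 was first among them, and they included Fcer2a, Fcmr, Pax5, Cr2, Ighd, Il22ra2, Cd79a and Ccl22, with gaps from 8.05 for Fcer2a to 6.47 for Ccl22. Of these, Fcer2a, Fcmr, Pax5, Cr2, Ighd and Cd79a are genes of B cells, and Cr2 and Fcer2a are also carried by follicular dendritic cells. Ccl19 ranked 20, Chst4 37, Coch 47, Madcam1 59, Ltb 95, Fut7 111, Ccl21a 186, Cxcl13 721 and Ltbr 8889 of 11896. All 10 genes of the B cell list had a gap of at least 3, and their median gap was 6.53.

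Other genes of lymph node tissue were followed with lists of HEV, reticular, lymphotoxin and homing genes that hold none of the 10. In the list of 18 reticular and follicular dendritic cell genes, 14 were highest in piece 01 and 10 were at least 2-fold above the other pieces. Of all genes 24.8% were highest in piece 01 and 7.85% passed the 2-fold mark. The largest gaps were those of Cr2, a complement receptor, with 7.02, of Clu, the chaperone clusterin, with 2.94, and of Tnfsf11, the cytokine RANKL, with 2.72. Cr2 also stands in the B cell list. Pdpn, Sox9, Tmem119 and Vcam1 were not highest in piece 01, with gaps of -2.28, -2.78, -1.58 and -0.88. In the list of 12 homing receptors, 11 were highest in piece 01. Cxcr5, the receptor of CXCL13, lay at 231 CPM against at most 3.51 CPM in the other pieces, and Ccr7, the receptor of CCL19 and CCL21, at 161 CPM against at most 4.56.

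In the lymphotoxin and NF-kB list, 15 of 18 genes were highest in piece 01, where 24.8% of all genes were. Lta, the soluble partner of Ltb, had a gap of 4.63, and Birc3 and Birc2, inhibitors of the kinase that starts the non-canonical branch, had gaps of 2.06 and 1.85. The HEV genes described above were chosen around piece 01, so a difference between them and other HEV genes cannot be read apart from that choice. In the HEV list 5 of 21 genes were highest in piece 01, near the 24.8% of all genes. The median gap of -0.75 was also near that of all genes. The largest gap of the HEV list was that of Chst2, another sulfotransferase of the HEV sugars, with 2.43, at 66.3 CPM in piece 01 and 6.37 to 11.9 CPM elsewhere. Enpp2, the autotaxin made by HEVs and by adipocytes, had 1.29, and Icam1, an integrin ligand, had 1.11. The venule receptor gene Ackr1 was lower in piece 01, at 12.3 CPM, than in the highest other piece, at 25.5 CPM.

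Lists of cell type markers placed piece 01 as follows, where 24.8% of all genes were highest in that piece. The T cell list, led by Cd4 and Lck, summed to 240 CPM in piece 01, within the 206 to 246 CPM of the KO pieces. In KO + NM1 pieces 02 to 04 it summed to 4.89 to 6.13 CPM. Of its 11 genes 2, Cd4 and Lck, were highest in piece 01. Cd3d, Cd3e, Cd3g, Cd5, Trac, Trbc2 and Cd28 were lower there than in every KO piece. Cd3e, for example, lay at 6.20 CPM against 20.0 to 24.0 CPM. Cd8a and Cd8b1 lay within the range of the KO pieces. The dendritic cell list, led by Ccl22, summed to 507 CPM in piece 01 and to 46.2 to 60.1 CPM elsewhere. The lymphatic endothelial list summed to 107 CPM in piece 01, 92.5 to 110 CPM in the KO pieces and 45.5 to 68.2 CPM in KO + NM1 pieces 02 to 04. In the KO pieces its most abundant gene was Pdpn, which also stands in the reticular list, at 69.1, 41.4 and 51.2 CPM. Pdpn lay at 13.9 CPM in piece 01, and 5 of the 8 measured genes of the lymphatic list were highest there. White adipocyte genes, led by Fabp4 and Cfd, at 4012 CPM, and mammary epithelial genes, led by Epcam and Krt18, at 408 CPM, were lower in piece 01 than in KO + NM1 pieces 02 to 04, where they summed to 21145 to 30220 CPM and 1331 to 2039 CPM. In the KO pieces the same lists summed to 47.6 to 201 CPM and 27.5 to 626 CPM. The macrophage list summed to 811 CPM in piece 01 and the skeletal muscle list to 22.3 CPM. The plasma cell list, led by Xbp1 and Mzb1, summed to 394 CPM in piece 01 and 172 to 288 CPM elsewhere. Of its 6 measured genes 3 were highest in piece 01, among them Mzb1, at 83.6 CPM against at most 1.49 CPM elsewhere. Xbp1 lay at 139 CPM in piece 01, below KO + NM1 pieces 02 to 04, at 183 to 211 CPM. The neutrophil list, whose leading gene Ltf is also a milk gene, summed to 221 CPM in piece 01. It summed to 1.23 to 6.08 CPM in the KO pieces and 605 to 1594 CPM in KO + NM1 pieces 02 to 04. Of its 7 measured genes, however, 5 were highest in piece 01, and the median gap was 1.88.

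**Figure D3:**
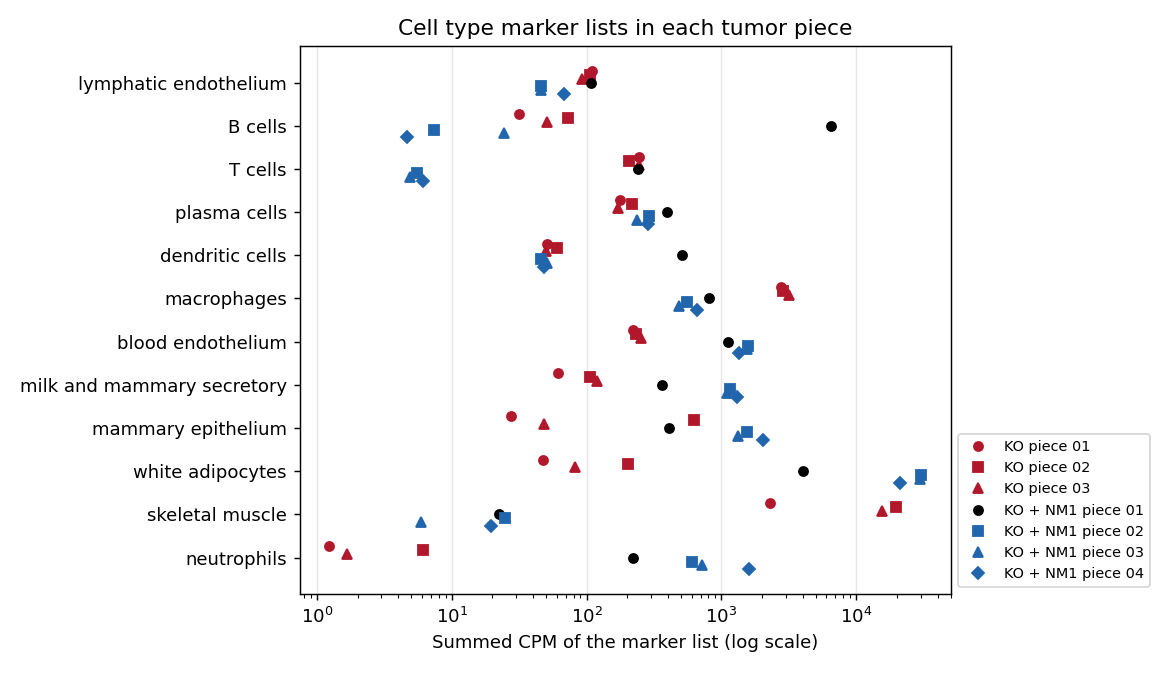
Summed CPM of each of 12 marker lists (x axis, log scale) in each of the 7 pieces, with KO in red, KO + NM1 pieces 02 to 04 in blue and KO + NM1 piece 01 in black. The B cell list lies at 6476 CPM in piece 01 and at 4.65 to 72.2 CPM in the other pieces.

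Whether the same genes differed between tumors of KO and KO + NM1 cells, the comparison the study was designed for, was tested without piece 01, in the 3 KO pieces against KO + NM1 pieces 02 to 04. The rule did not set these groups against each other, but their 6 pieces were the ones it set beside piece 01, and earlier results of these data were known. In the KO pieces Cxcl13, Ltb, Ccl21a and Fut7 rose, while Ltbr was slightly lower and Coch did not pass the test. Genes were compared with edgeR's quasi-likelihood test and called changed at a Benjamini-Hochberg adjusted p under 0.05 and a fold change of at least 2. Of 16617 genes tested, 3603 (21.7%) were called higher and 4172 (25.1%) lower in KO, or 46.8% in all. With library size as the only normalization these counts were 5001 higher and 3318 lower, a scaling that moved the median log2 fold change of all genes from -0.0022 to 0.37. Of the 10 genes, 6 passed the filter on low counts, and 4 of the 6 (66.7%) were called, all of them higher in KO. The median log2 fold change of these 6 was 2.11, which describes only the genes that passed the filter.

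Cxcl13 had a mean level in KO of 110 CPM ± 55.2 (SD, n = 3) against 3.17 CPM ± 1.26 (SD, n = 3) in KO + NM1 pieces 02 to 04, a log2 fold change of 4.98 ± 0.54 (SE, edgeR adjusted p = 0.000179). Ltb had 30.6 CPM ± 5.71 (SD, n = 3) against 3.11 CPM ± 0.391 (SD, n = 3), a log2 fold change of 3.17 ± 0.20 (SE, edgeR adjusted p = 1.94e-05). Ccl21a had 25.5 CPM ± 9.81 (SD, n = 3) against 3.23 CPM ± 3.72 (SD, n = 3), a log2 fold change of 2.85 ± 0.78 (SE, edgeR adjusted p = 0.0132). KO + NM1 piece 04, at 7.52 CPM, was the highest of its group for Ccl21a, and without it the log2 fold change was 4.40 (edgeR adjusted p = 0.00039). Fut7 had 1.56 CPM ± 0.111 (SD, n = 3) against 0.554 CPM ± 0.16 (SD, n = 3), a log2 fold change of 1.36 ± 0.32 (SE, edgeR adjusted p = 0.00725). For these 4 genes every KO piece lay above every one of KO + NM1 pieces 02 to 04, an order found for 43.0% of the genes tested.

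Ltbr had a mean level in KO of 83.6 CPM ± 1.60 (SD, n = 3) against 96.5 CPM ± 9.69 (SD, n = 3) in KO + NM1 pieces 02 to 04. Its log2 fold change of -0.33 ± 0.09 (SE, edgeR adjusted p = 0.015) passed the adjusted p, as 35.8% of all genes did upward, 36.0% downward and 71.8% in all, but not the 2-fold mark, and with library size as the only normalization it was 0.04 (edgeR adjusted p = 0.823). Coch had a log2 fold change of -0.60 ± 1.09 (SE, edgeR adjusted p = 0.638). KO piece 02 held 37 of its counts, and without that piece the log2 fold change was -3.68 (edgeR adjusted p = 0.0031). Glycam1, Chst4, Madcam1 and Ccl19 were below the filter, and their counts in these 6 pieces are those given above. Among them Madcam1 had fewer counts in each KO piece than in each of KO + NM1 pieces 02 to 04, at levels of 0.0333 to 0.0991 CPM against 0.325 to 0.395 CPM, and the other 3 overlapped. Of all genes tested 35.3% lay lower in every KO piece, as Ltbr did, and 78.2% did not overlap in either direction. Madcam1 was below the filter, so these shares do not cover it.

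With KO + NM1 piece 01 added to its group, the fit holds the values that chose the genes, and Glycam1 and Ccl19 pass its filter through that piece, so it is given as a description and no test of these genes. None of the 8 genes then tested was called by edgeR, and 1 of them, Glycam1, had an unadjusted p under 0.05, where 17.1% of 16887 genes were called higher in KO, 20.3% lower and 37.3% in all. The log2 fold changes became -2.60 for Ltb, -2.16 for Ccl21a and -2.61 for Fut7, and that of Cxcl13 fell to 0.18.

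**Figure D4:**
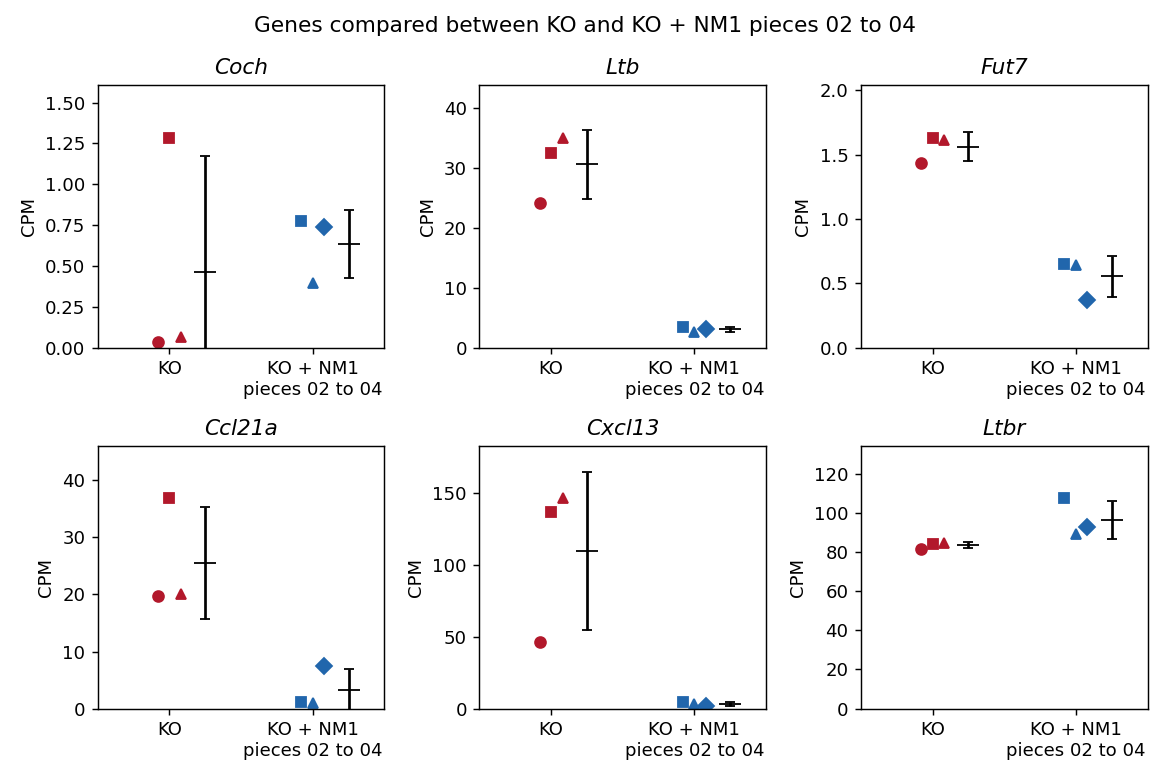
CPM (y axes from 0) of the 6 genes tested in the 3 KO pieces (red) and KO + NM1 pieces 02 to 04 (blue), with the mean and SD of each group in black. Bars that reach below 0 are cut at the axis. Coch overlaps between the groups, and the other 5 genes do not.

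Markers of several cell types also differed between KO and KO + NM1 pieces 02 to 04. Between the same pieces all 11 T cell genes were called higher in KO (summed level 206 to 246 CPM against 4.89 to 6.13 CPM). Of the 9 macrophage genes 7 were higher and 1 lower (2785 to 3172 CPM against 483 to 657 CPM). Of the 10 B cell genes 3 were called higher and 7 were not called (31.5 to 72.2 CPM against 4.65 to 24.5 CPM). Over all genes tested 21.7% were called higher and 25.1% lower. All 8 skeletal muscle genes, led by Ttn and Mylpf in piece 01, were higher in KO (2292 to 19548 CPM against 5.88 to 24.8 CPM), and all 8 blood endothelial and all 8 white adipocyte genes were lower. Of the T cell genes Cd3d, Cd3e, Cd8b1 and Cd5 were at or under 3 counts in each of KO + NM1 pieces 02 to 04. The part of these cell types in the levels of Cxcl13, Ltb, Ccl21a and Fut7 was not tested.

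Among the 66 genes of the 4 lists, 25 were called higher and 18 lower in KO than in KO + NM1 pieces 02 to 04, or 65.2%. Of all genes tested 46.8% were called, 21.7% higher and 25.1% lower. In the lymphotoxin and NF-kB list 9 of 18 were higher and 0 lower, and the median log2 fold change was 0.95. Tnf and Tnfsf14, cytokines related to lymphotoxin, had log2 fold changes of 3.58 ± 0.37 (SE) and 2.85 ± 0.32 (SE). Nfkb2, the NF-kB subunit of the non-canonical branch, had a mean level in KO of 335 CPM ± 46.8 (SD, n = 3) against 56.8 CPM ± 9.43 (SD, n = 3) in KO + NM1 pieces 02 to 04. Lta, the partner of Ltb, was not called, with a log2 fold change of 0.61 ± 0.39 (SE, edgeR adjusted p = 0.189).

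In the list of homing receptors 7 of 12 were higher in KO and 3 lower, where 21.7% of all genes tested were higher and 25.1% lower. Itgal, Itgb7 and Itga4, integrin subunits of leukocytes of which the latter pair forms the receptor of MAdCAM-1, had log2 fold changes of 4.36, 3.70 and 3.17. Ccr7 had 1.35, whereas Cxcr5, the receptor of CXCL13, was not called, at -0.31 ± 0.37 (SE, edgeR adjusted p = 0.478). The genes that fell were Ackr4, a scavenger of CCL19 and CCL21, with -2.96, S1pr1, which guides lymphocyte exit, with -2.45, and Ackr3, a scavenger of CXCL12, with -1.74.

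The HEV list leaned lower, with 11 of 21 genes lower in KO and 5 higher and a median log2 fold change of -1.29. Of all genes tested 25.1% were lower and 21.7% higher. The largest falls were those of Cd300lg, an endothelial surface glycoprotein, with -5.24, Enpp2 with -4.15 and Ackr1 with -3.36. The largest rises were those of Ch25h, a cholesterol hydroxylase, with 4.89, of Vcam1, an integrin ligand, with 3.27, and of Fut4, a fucosyltransferase related to Fut7, with 3.23. Blood endothelial markers fell between the same pieces, from 1346 to 1584 CPM in KO + NM1 pieces 02 to 04 to 219 to 252 CPM in KO, and their part in the fall of the HEV list was not tested.

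In the reticular and follicular dendritic cell list 6 of 18 genes were higher in KO and 5 lower, with a median log2 fold change of 0.07. These counts stand beside 21.7% higher and 25.1% lower of all genes tested. Grem1, a BMP antagonist of reticular cells, had 474, 67 and 174 counts in the KO pieces and 2, 1 and 1 in KO + NM1 pieces 02 to 04 (edgeR adjusted p = 0.000612). Tnfsf11 had 120, 70 and 85 counts against 0, 0 and 2 (edgeR adjusted p = 0.000219). Clu, with -4.14, and Il33, an alarmin, with -3.07, fell beside Enpp2, which like Vcam1 stands in both lists. Cr2, which separated piece 01 from all others, was not called between the remaining pieces, with a log2 fold change of 1.49 ± 1.00 (SE, edgeR adjusted p = 0.214).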

How the data were processed

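RNA-seq of 3 KO and 4 KO + NM1 tumor pieces was analysed. The authors processed the reads, per the submitters' processing notes, with Trimmomatic 0.36, HISAT2 2.0.4 on GRCm38 (mm10), SAMtools 0.1.19 and HTSeq. Strand option and annotation release are not given in the sources used here. The deposited values are raw counts for 46603 Ensembl genes, of which 46091 were given a GENCODE M21 symbol.

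In R 4.3.3, edgeR 4.0.16 (filterByExpr with a minimum count of 10, TMM, quasi-likelihood test) compared the 3 KO pieces with KO + NM1 pieces 02 to 04. CPM used TMM-scaled library sizes of all 7 pieces. Gaps used a pseudocount of 0.5 CPM. A count of 0 allows up to 3 counts, or 0.0991 to 0.148 CPM (counting error only). No library repeated another (chi-square per degree of freedom 35.2 to 1050 over all pairs). With 3 against 3 an exact permutation test cannot go below p = 0.1, so none was used.

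The 10 genes and all lists were chosen with earlier results of these data known. Named genes were the 10, in each of 4 lists the 3 largest gaps and up to 3 called genes per direction, and the 10 largest gaps of all genes, of which 2 are not reported here though list counts and sums hold them. Serpina1 was not matched. Alternatives were other normalizations and filters, DESeq2 1.42.0, a replicate block, all 7 pieces, other pseudocounts and each library left out. The comparison of the 3 KO pieces with KO + NM1 pieces 02 to 04 was tested on simulated data, the other fits were not. In the simulation 193 of 16368 genes were changed. At an adjusted p under 0.05 alone, 49.0% of 2-fold and 96.8% of 4-fold changes were called, and 9.09% of the calls were false. Per-length levels used GENCODE M21 union exon lengths.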

Additional observations from a re-analysis of the deposited data

Results flagged for a closer look

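A test of Dixon divides the distance between the most extreme piece and the next one by the full spread of the group. On log2(CPM + 0.5) over the 4 KO + NM1 pieces it was run for 49 values, and 28 of them passed its 95% limit. By chance about 1 in 20 such groups passes, but the 49 values are not independent. The 10 genes and some list genes among them were chosen for their level in piece 01, so the 28 are not read against that rate. In 27 of the 28 the most extreme piece was piece 01. For 8 of the 10 genes the ratio passed, and since the genes were chosen around piece 01, these ratios describe the choice and are no test. They were 1 for Chst4, 0.977 for Madcam1, 0.96 for Ltb, 0.952 for Ccl19, 0.925 for Fut7, 0.916 for Coch, 0.877 for Glycam1 and 0.866 for Cxcl13, all high in piece 01.

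Other genes named here that were high in piece 01 were Grem1 with a ratio of 0.982, Tnfsf11 with 0.963, Cr2 with 0.868 and Clu with 0.835. Of the list genes in this paragraph, Cr2, Clu, Tnfsf11, Lta, Birc3, Birc2, Cxcr5 and Enpp2 were named for their gap in piece 01. Their ratios therefore describe that choice too. Grem1, Tnfsf14, Nfkb2, Tnf, Itgb7, Itgal, Itga4 and Ch25h were named because they were called higher in KO than in KO + NM1 pieces 02 to 04. They were thus chosen for low levels in those pieces, and their ratios are no independent result either. Ch25h lay at 9.96 CPM in piece 01, below the KO pieces at 14.9 to 21.5 CPM. In the lymphotoxin and NF-kB list the ratio was 0.974 for Birc3, 0.946 for Tnfsf14, 0.885 for Lta, 0.86 for Nfkb2, 0.856 for Birc2 and 0.835 for Tnf. Among homing receptors it was 0.972 for Cxcr5, 0.958 for Itgb7, 0.955 for Itgal and 0.845 for Itga4, and among HEV genes 0.887 for Ch25h and 0.837 for Enpp2. Of the summed marker lists, dendritic cells (0.961) and T cells (0.946) were high in piece 01, milk genes (0.862) were low in piece 01, and skeletal muscle (0.831) was low in piece 03.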

How the results depend on the processing

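The comparison of KO with KO + NM1 pieces 02 to 04 was repeated under 17 alternatives. In the 15 without KO + NM1 piece 01, Cxcl13 kept a log2 fold change of 4.73 to 5.36, Ltb 3.06 to 3.53 and Ccl21a 2.43 to 4.53, each past the adjusted p. Fut7, with 1.12 to 1.76 in the 14 that tested it, missed the adjusted p in 1. Leaving out 1 piece at a time gave 3515 to 3726 higher genes, 4092 to 4457 lower genes, 4 to 5 of the 10 genes called and 41 to 44 of the 66 list genes called. On library size alone Ltbr turned from -0.33 to 0.0386. Without the 2-fold mark 5957 genes were higher and 5980 lower.

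Adding KO + NM1 piece 01 left 0 of the 10 genes and 20 of the 66 list genes called, and turned Ccl21a to -2.16, Fut7 to -2.61, Ltb to -2.60 and Ltbr to 0.0018. The replicate numbers were not shown to pair pieces, as the deviations of same-numbered pieces correlated at 0.0728, 0.0978 and -0.0188 and KO piece 02 correlated best with KO + NM1 piece 04 (0.105). With the replicate number as a block, pieces 02 and 03 being shared, 3321 genes were higher and 3872 lower, 3 of the 10 genes were called and Fut7 had 1.20 (edgeR adjusted p = 0.0767). With all 7 pieces and the block, 2493 genes were lower, 1 of the 10 genes and 13 list genes were called, Fut7 had -0.28 and Ltbr 0.15. The causes were not tested.

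The log2 gaps of piece 01 kept their sign for all 10 genes over 6 other scalings and pseudocounts, with 8 genes at 8-fold or more in each. The gap of Chst4, whose other counts were near 0, ranged from 3.51 to 7.30 with the pseudocount and that of Glycam1 from 9.73 to 11.15. Glycam1, Chst4, Madcam1 and Ccl19, with few counts outside piece 01, did not pass the filter in the comparison of the remaining pieces. Without that filter 6 of the 10 genes were called, and with at least 10 counts required in every piece 3 were.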

Other observations

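Within the macrophage and lymphatic endothelial lists, 2 genes of lymph node sinuses, chosen after their values were seen, were high in KO + NM1 piece 01. Marco, a scavenger receptor of sinus macrophages and of sinus-lining endothelium, had 4247 counts in piece 01, 113, 174 and 139 in the KO pieces and 2, 1 and 1 in KO + NM1 pieces 02 to 04. Stab2, a hyaluronan receptor of sinus endothelium, had 341 counts in piece 01, 9, 1 and 9 in the KO pieces and 0, 0 and 2 in KO + NM1 pieces 02 to 04. The common lymphatic genes Prox1, Lyve1 and Flt4 were not set apart in this way, with gaps of 0.47, 0.50 and 0.21 on the log2 scale. Lyve1 had 570 counts in piece 01 and 160 to 355 in the other 6 pieces, and Flt4 had 803 and 431 to 724. Of the 8 measured lymphatic genes 5 were highest in piece 01, while Pdpn, Reln and Mmrn1 were not, with gaps of -2.28, -1.53 and -0.53. Of the 9 macrophage genes 1, Marco, was highest in piece 01, and the median gap of that list was -2.59. Over all genes 24.8% were highest in piece 01. The macrophage gene Adgre1 had 499 counts in piece 01, 829, 475 and 854 in KO + NM1 pieces 02 to 04 and 5370 to 6851 in the KO pieces.

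Tnfsf11 and Grem1 were measured both in KO + NM1 piece 01 (797 and 774 counts) and in the KO pieces (70 to 120 and 67 to 474 counts), and were at or under 3 counts in each of KO + NM1 pieces 02 to 04.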
